A study of Mus musculus with 18 samples.

Results

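The genes of metal and iron handling followed here in mouse splenocytes were 8 in number: the metallothioneins Mt1 and Mt2, heme oxygenase Hmox1, the iron exporter Slc40a1, the ferritin subunits Fth1 and Ftl1, the transferrin receptor Tfrc and the phagosomal metal transporter Slc11a1. They were chosen by gene name, and these 8 of the 47729 reference genes listed in each library were read in all 18 libraries. All 8 stood on a single row of every table and passed the filter of a mean of at least 0.5 FPKM, the fragment number corrected for gene length and library size.

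The libraries came from spleens of C57BL/6J mice that the labels call female and give as 4 to 6 weeks old. N (3 libraries) was naive. LM (3 libraries) had 2 injections of LPPC/MP, in which a lipo-PEG-PEI complex (LPPC) carries membrane proteins (MP) of antigen-loaded dendritic cells, and was taken in week 3. LMA (6 libraries) had these injections and then LPPC/MP/CD28, and LMS (6 libraries) had them and then LPPC/MP with an antibody to CTLA4, which the labels write as LPPC/mp/CD152, both taken in weeks 4 to 5. Since the later groups had more doses, an antibody and a later week than LM, and none was given LPPC/MP alone as modulation, the parts of dose, week and antibody cannot be told apart. The labels do not separate mice with 1 modulation from mice with 2, and their protocol fields describe melanoma tumours where the methods of the study describe splenocytes. Separate animals are not stated for the libraries of a group, and the p-values therefore cover the spread between libraries, which may be technical.

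The N and LMS libraries were of 2 kinds that cut across the groups. Eif2s3y, a gene of the Y chromosome, stood between 31.0 and 43.0 FPKM in 14 libraries, against their label of female, and had a value of 0 in the other 4, which were N 1, N 2, LMS 2 and LMS 5. In the 4 libraries without Eif2s3y the T cell gene Cd3e was at 55.5 to 68.8 FPKM and the myeloid lysozyme Lyz2 at 267 to 307, while in N 3 and LMS 1, 3, 4 and 6 Cd3e was at 0.843 to 5.58 and Lyz2 at 2589 to 2888. The LM and LMA libraries lay between these, with Lyz2 at 1386 to 1491, and matched neither kind. Xist, a gene of the X chromosome, was at 48.1 to 59.9 FPKM in the 4 libraries without Eif2s3y. It was at 0.286 to 2.69 in N 3 and LMS 1, 3, 4 and 6, and at 4.84 to 7.20 in LM and LMA. Results in LMA are therefore given also against each kind of N and LMS library alone, sets that were taken with these values known. In bulk RNA, fewer cells of a type and less RNA per cell cannot be told apart.

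Metallothioneins are small cysteine-rich proteins that bind zinc and copper, and their genes are switched on by the metal-responsive factor MTF-1, by glucocorticoids and by inflammatory signals. Splenic macrophages of the red pulp take up aged red cells, open the heme ring with heme oxygenase, store the freed iron in ferritin and release it through ferroportin, the product of Slc40a1. Erythroid precursors take iron up again through the transferrin receptor. Iron regulatory proteins bind hairpins in the untranslated regions of several of these mRNAs, blocking translation where the hairpin lies at the 5′ end and protecting the transferrin receptor mRNA where hairpins lie at the 3′ end.

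Mt1 and Mt2 lie side by side on chromosome 8 of GRCm38, Mt2 (ENSMUSG00000031762) from 94172618 to 94173567 and Mt1 (ENSMUSG00000031765) from 94179089 to 94180325, both on the plus strand, so that Mt1 starts 5522 bases after the last base of Mt2. Their coding sequences of 183 bases were identical at 79.2% of positions and shared no run longer than 20 bases. The 250 bases before each annotated start are printed. Capitals mark matches on either strand to TGCNCNC, the core of the metal response element that MTF-1 binds. The sequences are RefSeq's for GRCm38.p6, where 6 of the 8 genes had an entry.
Mt2, chr8:94172368-94172617, plus strand: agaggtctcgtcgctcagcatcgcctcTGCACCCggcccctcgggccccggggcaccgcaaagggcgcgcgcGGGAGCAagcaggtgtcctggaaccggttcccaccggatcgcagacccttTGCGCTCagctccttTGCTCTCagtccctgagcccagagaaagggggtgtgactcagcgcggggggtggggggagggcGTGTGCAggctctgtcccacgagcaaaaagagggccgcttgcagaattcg
Mt1, chr8:94178839-94179088, plus strand: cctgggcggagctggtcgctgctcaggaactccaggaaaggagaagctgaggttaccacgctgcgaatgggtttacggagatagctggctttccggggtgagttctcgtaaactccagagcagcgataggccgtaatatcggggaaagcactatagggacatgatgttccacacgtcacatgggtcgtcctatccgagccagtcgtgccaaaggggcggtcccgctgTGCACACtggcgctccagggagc
The Mt2 window held 5 matches, 3 on the plus and 2 on the minus strand, between positions -223 and -50, and at least as many were found in 0.344% of 32851 promoter windows of this length. The Mt1 window held 1 match, at position -23, and 44.4% of the windows held at least 1. A match describes the letters and is not a bound site. Sequence on the other side of the annotated start was not searched, so the counts hold for these windows and not for the whole promoters. Their part in the fold changes of the 2 genes was not tested.

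Hairpins of the kind that iron regulatory proteins bind were searched in the untranslated regions of GENCODE M21 as the loop CAGTGN (capitals) closed by 5 base pairs, G-U pairs allowed, below which stands an unpaired C at the 5′ side. They are shown because they mark which of the 8 mRNAs carry the element at which end.
Fth1, 5′ untranslated region, chr19:9982732-9982761, plus strand: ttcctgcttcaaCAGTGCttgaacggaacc
Ftl1, 5′ untranslated region, chr7:45459778-45459807, minus strand: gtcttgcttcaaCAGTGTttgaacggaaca
Slc40a1, 5′ untranslated region, chr1:45925464-45925493, minus strand: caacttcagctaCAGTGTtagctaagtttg
Tfrc, 3′ untranslated region, chr16:32631219-32631248, plus strand: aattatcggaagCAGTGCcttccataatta
Tfrc, 3′ untranslated region, chr16:32631598-32631627, plus strand: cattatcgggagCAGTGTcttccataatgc
Tfrc, 3′ untranslated region, chr16:32631663-32631692, plus strand: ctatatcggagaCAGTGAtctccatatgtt
Tfrc, 3′ untranslated region, chr16:32631710-32631739, plus strand: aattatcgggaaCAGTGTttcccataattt
The same search matched 31 of 20899 genes with an annotated 5′ untranslated region (0.148%) and 129 of 21022 with a 3′ one (0.614%), and 1 gene held 3 or more matches in the latter, which was Tfrc. Mt1, Mt2, Hmox1 and Slc11a1 held no match.

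Of the 8 genes, 6 were higher after LPPC/MP and after LPPC/MP followed by LPPC/MP/CD28 than in naive spleens, by 2.64-fold (Hmox1) to 34.3-fold (Mt2) in LMA. Mt1, Mt2, Hmox1, Fth1, Ftl1 and Slc11a1 passed limma's test over 11436 protein-coding genes (Benjamini-Hochberg adjusted p under 0.05) as higher in LM against N and again in LMA against N, where 9.18% and 13.6% of all genes tested did so. The 2 comparisons share their N libraries. With the LM and N libraries fitted alone, Slc11a1 was the only one of the 6 called in LM against N (limma adjusted p = 0.029, with 0.402% of genes tested higher), while Fth1 had 0.085, Hmox1 0.11, Mt2 0.12, Ftl1 0.13 and Mt1 0.21. In every one of these 6 genes all 9 LM and LMA libraries stood above all 9 N and LMS libraries, as they did for 9.21% of genes tested, while 12.8% stood the other way round. Slc40a1 and Tfrc passed in neither comparison.

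**Figure D1:**
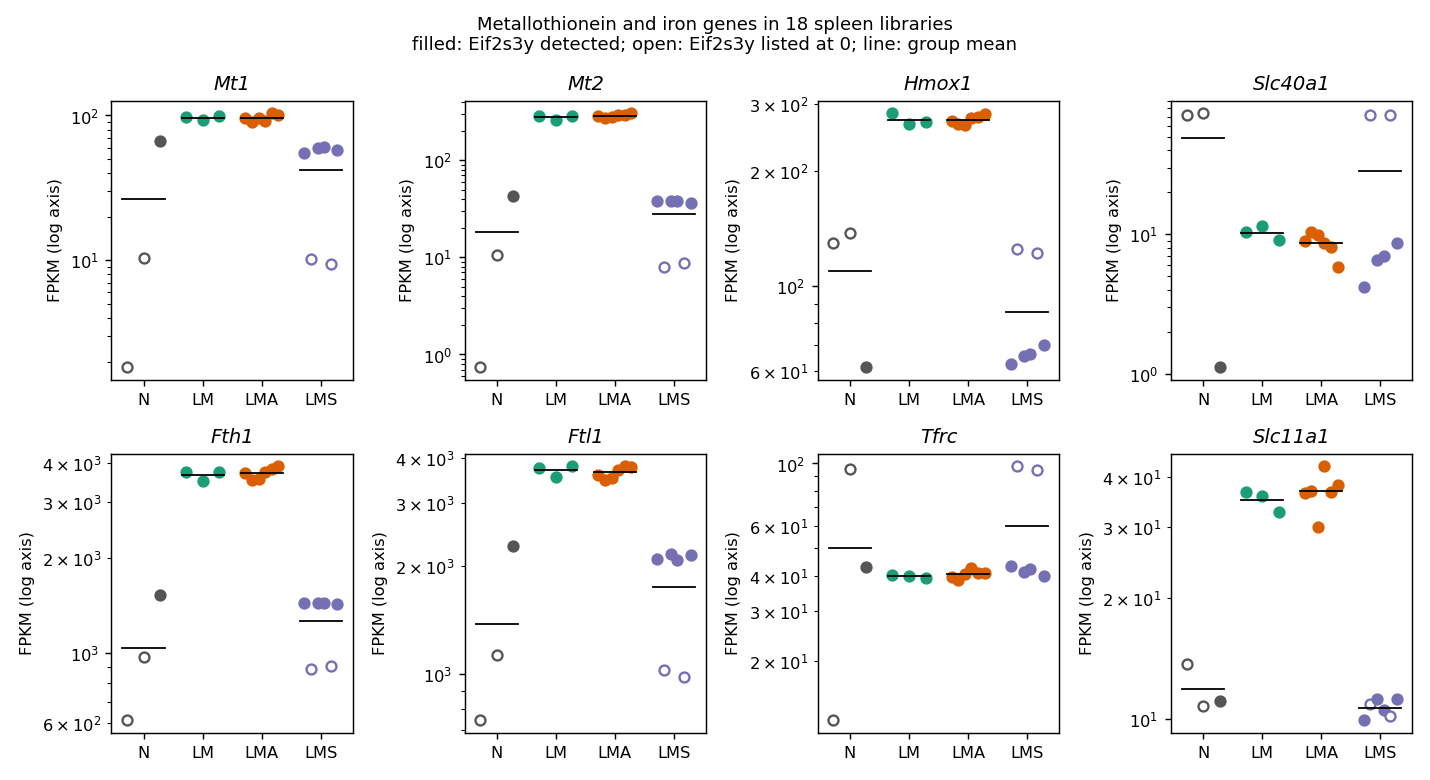
FPKM (log axis) of the 8 genes in each of 18 libraries by group, with filled points where Eif2s3y was detected, open points where it was listed at 0 and a line at the group mean. For Mt1, Mt2, Hmox1, Fth1, Ftl1 and Slc11a1 all LM and LMA points lie above all N and LMS points, while Slc40a1 is near 72 FPKM in the 4 open points and at most 11.4 in every filled one.

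In LMS, 5 of the 8 genes (Mt2, Hmox1, Fth1, Ftl1 and Slc11a1) were called lower than in LM, as were 7.94% of genes tested. The same 5 were called higher in LMA than in LMS, as were 11.3% of genes tested. Mt1 was higher in every LM and LMA library than in any LMS library but missed the threshold of limma's test, with an adjusted p of 0.204 in LMS against LM and 0.0882 in LMA against LMS. In LMS against N and in LMA against LM limma called none of the 8 genes and none (0%) of all genes tested. At an unadjusted p under 0.05, 0 of the 8 genes passed in either, and 506 and 131 of all genes.

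With N 1, N 2, LMS 2 and LMS 5 left out, 7 genes were called higher in LM against N (25.8% of genes tested were) and 7 in LMA against N (25.6%), the seventh being Slc40a1, and 6 in LMA against LMS (28%). That set leaves N 3 as its only N library, taken to have the same spread as the rest. With N 3 and LMS 1, 3, 4 and 6 left out instead, 6 genes were called higher in LM against N (34.7%), in LMA against N (35.6%) and in LMA against LMS (36.6%), in each case Mt1, Mt2, Hmox1, Fth1, Ftl1 and Slc11a1. These 6 genes were thus higher in LMA against either kind of N and of LMS library. For 9.21% of genes tested every LM and LMA library stood above every N and LMS library of both kinds.

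**Figure D2:**
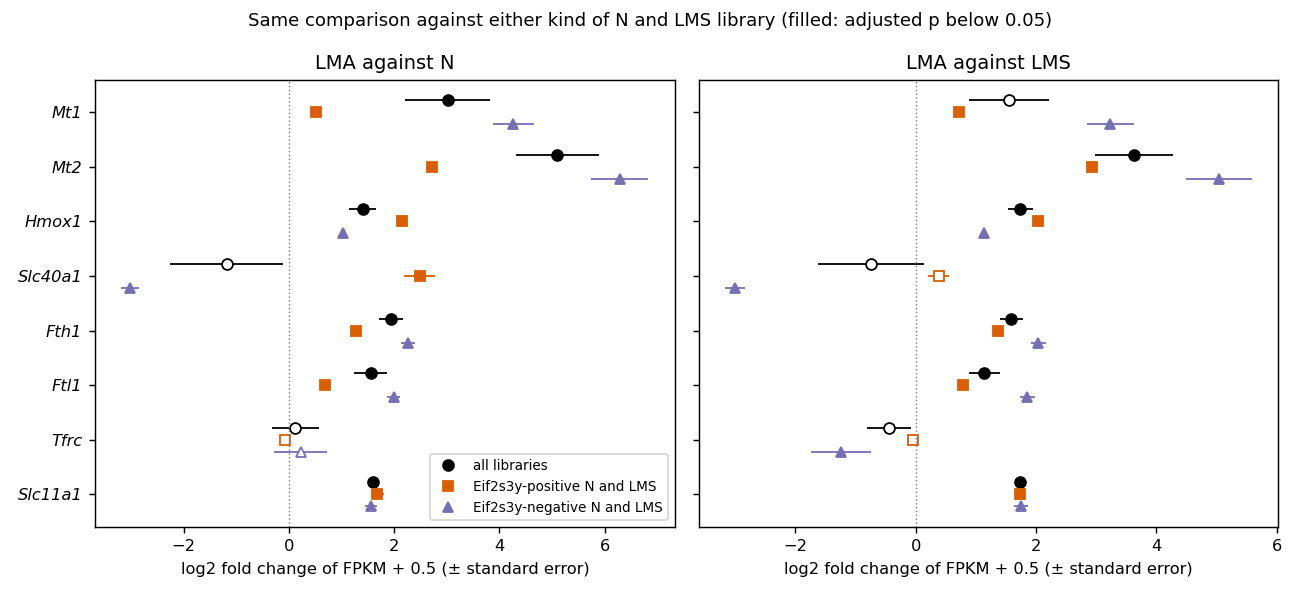
log2 fold change of FPKM + 0.5 (± standard error, limma) of the 8 genes in LMA against N and in LMA against LMS, with all libraries (circles), with the N and LMS libraries that have Eif2s3y (squares) or with those that lack it (triangles). Filled symbols have an adjusted p under 0.05. Slc11a1 hardly moves with the set, from 1.55 to 1.68 in LMA against N, Slc40a1 changes sign, and Mt1 and Mt2 move most among the other genes.

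Mt2 showed the largest fold change of the 8 genes in each comparison that called it. In N it was at 0.736, 10.6 and 43.1 FPKM in N 1, N 2 and N 3, and in LM at 288, 262 and 288. In LMA it was at 284, 272, 282, 292, 295 and 304 FPKM in libraries 1 to 6, and in LMS at 37.8, 7.89, 38.6, 37.7, 8.67 and 36.1. The LM and LMA libraries formed a narrow band, with no overlap with any N or LMS library, and LMS stayed within the range of N. On the log2(FPKM + 0.5) scale Mt2 rose by 5.05 in LM against N (standard error 0.91, limma adjusted p = 0.00088) and by 5.10 in LMA against N (standard error 0.79, adjusted p = 0.00015). In LMA against LMS the rise was 3.63 (standard error 0.64, adjusted p = 0.00041). The size depended on the kind of library: in LMA against N it was 2.73 with N 3 alone and 6.28 with N 1 and N 2 alone.

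Mt1 was at 1.82, 10.4 and 66.9 FPKM in N, and at 97.7, 92.6 and 99.2 in LM. The LMA libraries were at 95.5, 89.7, 96.1, 92.1, 103 and 100.3 FPKM, and in LMS at 55.0, 10.1, 59.6, 60.9, 9.39 and 58.1. LM and LMA again stood above every other library, but the distance to N 3 and to the 4 high LMS libraries was small. Mt1 rose by 3.02 in LM against N (standard error 0.93, limma adjusted p = 0.027) and by 3.02 in LMA against N (standard error 0.81, adjusted p = 0.0093). The call in LM against N was lost without N 1, where the rise was 1.84 (adjusted p = 0.15), or without N 2 (0.075), LM 1 (0.072), LM 2 (0.065) or LM 3 (0.073), and that in LMA against N without N 1, where the rise was 1.83 (adjusted p = 0.091). Against N 3 alone the rise in LMA was 0.52 (standard error 0.07, adjusted p = 2.4e-05), and against N 1 and N 2 alone it was 4.26 (standard error 0.39, adjusted p = 8.1e-07).

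The relation of Mt2 to Mt1 differed between the groups. FPKM is scaled to gene length, so the 2 levels can be set side by side in a library. Mt2 stood at 2.90 ± 0.06 times the FPKM of Mt1 in LM (SD, n = 3) and at 3.0 ± 0.11 times in LMA (SD, n = 6), against 0.69 ± 0.31 in N (SD, n = 3) and 0.71 ± 0.12 in LMS (SD, n = 6). The lowest ratio of any LM or LMA library was 2.83 and the highest of any N or LMS library 1.02. Both kinds of N and LMS library were thus below the LM and LMA range, with 0.404 to 1.02 in the 4 libraries without Eif2s3y and 0.620 to 0.687 in the other 5. Summed, the 2 metallothioneins reached 355 to 404 FPKM in LM and LMA and at most 110 FPKM elsewhere, in N 3. The ratio was examined after the levels were seen and was not tested.

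**Figure D3:**
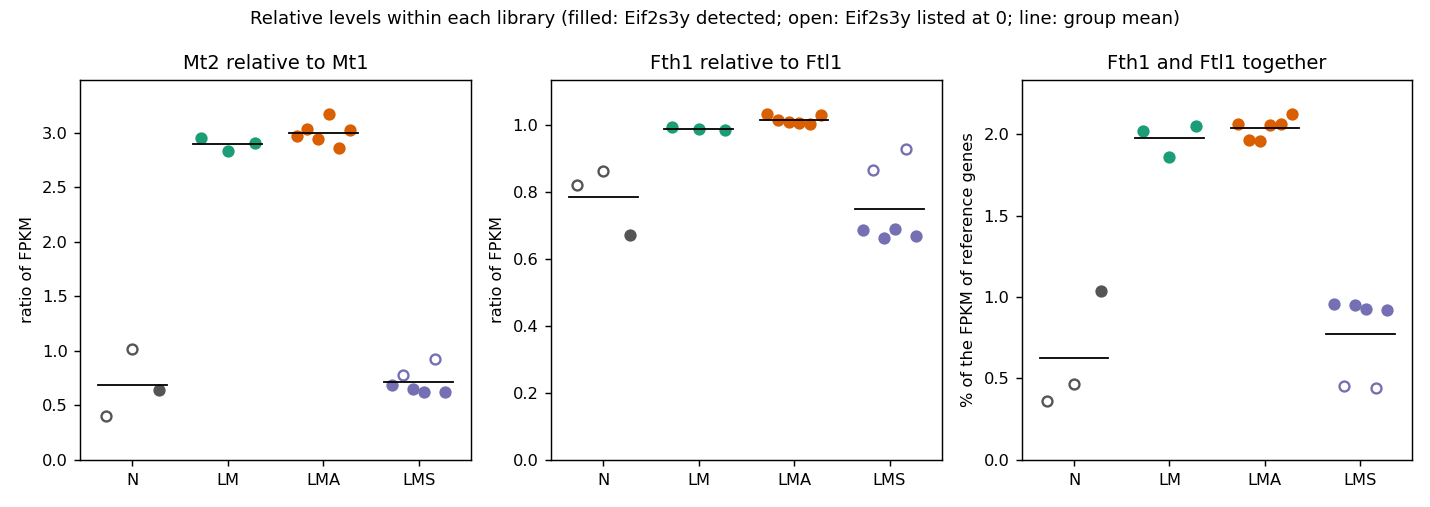
Ratio of FPKM of Mt2 to Mt1 and of Fth1 to Ftl1, and the share of Fth1 and Ftl1 in the FPKM of all reference genes (%), in each library by group, with filled points where Eif2s3y was detected, open points where it was listed at 0 and a line at the group mean. The Mt2 to Mt1 ratio is 2.83 to 3.17 in LM and LMA and 0.404 to 1.02 in N and LMS.

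Hmox1, the enzyme that opens the heme ring, was at 130, 138 and 61.3 FPKM in N and at 284, 266 and 269 in LM. The 6 LMA libraries lay at 271, 267, 264, 277, 277 and 283 FPKM, and in LMS at 62.4, 125, 65.8, 66.5, 123 and 70.2. The N and LMS libraries fell into a higher set of 4 without Eif2s3y and a lower set of 5 with it, opposite to the metallothioneins, and LM and LMA exceeded both. The gene (ENSMUSG00000005413) lies on chromosome 8 from 75093591 to 75100596. Hmox1 rose by 1.40 in LM against N (standard error 0.29, limma adjusted p = 0.0027) and by 1.40 in LMA against N (standard error 0.25, adjusted p = 0.00058), and it was lower by a log2 difference of -1.74 in LMS against LM (standard error 0.25, adjusted p = 0.00013). In LMA against LMS the rise was 1.74 with all libraries, 2.04 with the LMS libraries that have Eif2s3y and 1.14 with those that lack it.

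Slc40a1, or ferroportin, the only known exporter of iron from mammalian cells, followed the kind of library more than the treatment. It was at 72.0, 73.6 and 1.11 FPKM in N, at 10.4, 11.4 and 9.05 in LM, at 8.92, 10.4, 9.83, 8.71, 8.18 and 5.86 in LMA, and at 4.17, 72.1, 6.60, 7.03, 71.6 and 8.62 in LMS. The 4 libraries near 72 FPKM were those without Eif2s3y, and they also held the most Spic and Vcam1, markers of red pulp macrophages, with Spic at 15.5 to 22.9 FPKM against 0.196 to 6.14 in the other 14. N 3 had both the least Slc40a1 and the least Spic. The list of 7 red pulp macrophage markers, none at 0 in any library, summed to 178 to 190 FPKM in these 4 libraries, 33.8 to 56.9 in the other 5 N and LMS libraries and 62.9 to 80.4 in LM and LMA. Of the 7 single markers limma called 1 higher in LMA against N and 1 in LMA against LMS, and none lower. Over all genes tested, 13.6% and 11.3% were higher there. The part of the list in the Slc40a1 values was not tested.

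No comparison called Slc40a1 with all libraries. In LMA against N the difference was -1.19 on the log2 scale with a 95% interval from -3.48 to 1.11. Against N 1 and N 2 alone Slc40a1 fell by 3.02 in LMA (limma adjusted p = 9.8e-09), and against N 3 alone it rose by 2.49 (adjusted p = 8.3e-06), so the direction was set by which naive library was used. Slc40a1 (ENSMUSG00000025993) lies on chromosome 1 from 45908068 to 45926523, on the minus strand.

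**Figure D4:**
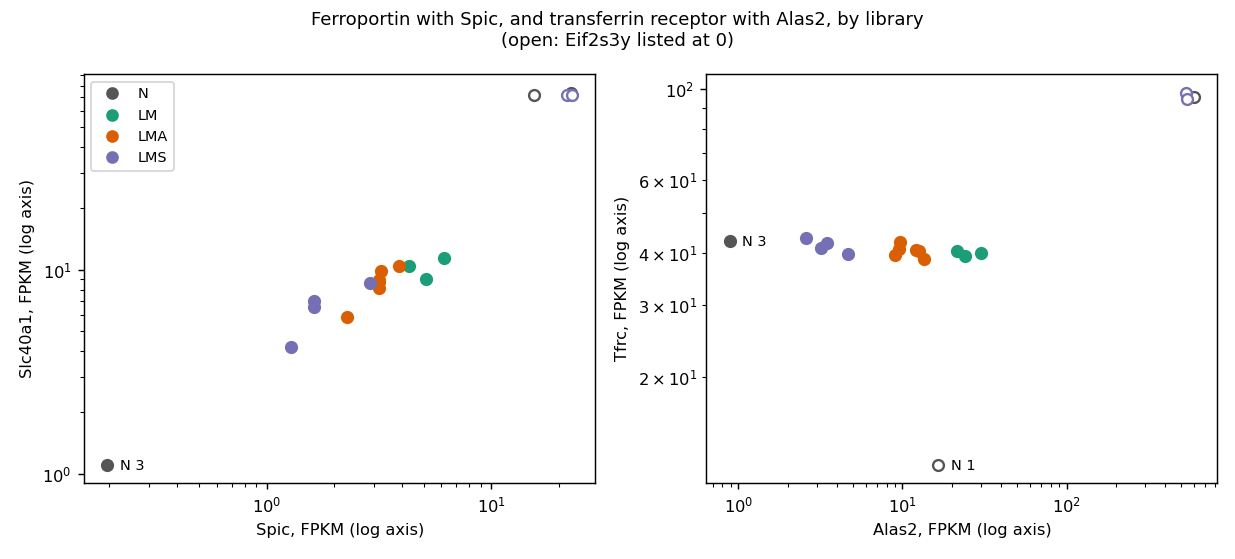
FPKM of Slc40a1 against Spic, a transcription factor of red pulp macrophages, and of Tfrc against Alas2, the heme synthesis enzyme of erythroid cells, in each of 18 libraries (log axes), coloured by group, with open points where Eif2s3y was listed at 0. The 4 open points have the highest Slc40a1 and Spic, and 3 of them, N 2, LMS 2 and LMS 5, have the highest Tfrc and Alas2.

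Ferritin mRNA was among the most abundant by the mean of all libraries, 9 of which were LM or LMA. A rank within the naive libraries alone was not taken. By mean level over the 18 libraries Ftl1, the light subunit, ranked 14 and Fth1, the heavy subunit that oxidises iron, ranked 17 among the reference genes. Fth1 was at 612, 973 and 1528 FPKM in N and at 3741, 3505 and 3732 in LM. LMA had 3713, 3533, 3556, 3724, 3805 and 3891 FPKM, and in LMS at 1439, 890.1, 1433, 1435, 912 and 1432. The lowest of the 9 LM and LMA libraries, at 3505 FPKM, stood far above the highest N or LMS library, at 1528. Fth1 rose by 1.92 in LM against N (standard error 0.26, limma adjusted p = 0.00010), by 1.93 in LMA against N (standard error 0.23, adjusted p = 1.4e-05) and by 1.59 in LMA against LMS (standard error 0.19, adjusted p = 8.0e-06).

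Ftl1 was at 746, 1131 and 2274 FPKM in N and at 3769, 3553 and 3796 in LM. In LMA it was at 3603, 3487, 3528, 3711, 3799 and 3789 FPKM, and in LMS at 2098, 1030.2, 2168, 2082, 985 and 2148. As for Fth1, the LM and LMA libraries did not overlap with the rest, and N 3 and LMS 1, 3, 4 and 6 lay between them and the libraries without Eif2s3y. Ftl1 rose by 1.58 in LM against N (standard error 0.36, limma adjusted p = 0.0049), by 1.55 in LMA against N (standard error 0.31, adjusted p = 0.0013) and by 1.14 in LMA against LMS (standard error 0.25, adjusted p = 0.0026). Without a filter on low values none of these Ftl1 calls remained, with adjusted p = 0.12, 0.063 and 0.11 in that order. The call of the difference of -1.16 in LMS against LM (limma adjusted p = 0.013) was lost without this filter too (0.22). It was also lost without LM 1 (0.053) or LM 3 (0.054).

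The ferritin subunits moved in unequal measure. The ratio of Fth1 to Ftl1 was 0.987 ± 0.005 in LM (SD, n = 3), 1.01 ± 0.01 in LMA (SD, n = 6), 0.784 ± 0.099 in N (SD, n = 3) and 0.749 ± 0.115 in LMS (SD, n = 6), and no N or LMS library reached the range of LM and LMA. Together the subunits made up 1.86 to 2.12% of the FPKM of all reference genes in LM and LMA, 0.364 to 1.04% in N and 0.444 to 0.957% in LMS. The ratio was not tested. Fth1 (ENSMUSG00000024661) lies on chromosome 19 from 9982703 to 9985092 and Ftl1 (ENSMUSG00000050708) on chromosome 7 from 45457945 to 45459886, on the minus strand. Processed copies of both exist, of which Ftl2-ps was listed at a mean of 11.8 FPKM and Fth-ps2 at 0.631, so some reads of either gene may have been assigned to a copy.

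Tfrc, which takes up transferrin-bound iron and is highest in erythroid precursors and dividing cells, did not pass in any comparison of all libraries. It was at 12.3, 95.6 and 42.8 FPKM in N and at 40.4, 40.0 and 39.3 in LM. Its LMA values were 39.7, 38.7, 40.5, 42.6, 40.8 and 40.9 FPKM, and in LMS at 43.4, 97.7, 41.2, 42.4, 94.4 and 39.8. Apart from N 1, every library was near 40 or near 95 FPKM. The 3 libraries near 95 FPKM, N 2, LMS 2 and LMS 5, were those with 16.9 to 18.4% of their FPKM in hemoglobin genes and with Alas2 at 534 to 600 FPKM, against at most 1.85% and 30.2 FPKM elsewhere. N 1 lacked Eif2s3y as they did but had 0.671% hemoglobin, Alas2 at 16.6 FPKM and the lowest Tfrc. The 9 erythroid markers found of 10 summed to 72398 to 84051 FPKM in the 3 libraries and to 115 to 7082 in the other 15, and their part in the Tfrc values was not tested.

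In LMA against N Tfrc differed by 0.12 on the log2 scale, with a 95% interval from -0.83 to 1.08. Among the libraries with Eif2s3y the difference was -0.08 (standard error 0.05, limma adjusted p = 0.19). Against LMS 2 and LMS 5 alone, Tfrc was lower in LMA by a log2 difference of -1.24 (standard error 0.50, adjusted p = 0.040). The gene (ENSMUSG00000022797) lies on chromosome 16 from 32608920 to 32632794.

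Slc11a1 (Nramp1), which pumps iron and manganese out of the phagosome of macrophages and neutrophils, gave the smallest adjusted p of the 8 genes in each comparison that called it. It was at 13.7, 10.8 and 11.1 FPKM in N and at 36.7, 35.9 and 32.7 in LM. In LMA it was at 36.5, 37.1, 30.1, 42.6, 36.8 and 38.2 FPKM, and in LMS at 9.93, 10.9, 11.2, 10.5, 10.2 and 11.2. Its values lay close together in both kinds of N and LMS library, with 10.2 to 13.7 FPKM in the 4 without Eif2s3y and 9.93 to 11.2 in the other 5. Slc11a1 rose by 1.53 in LM against N (standard error 0.11, limma adjusted p = 2.8e-07), by 1.60 in LMA against N (standard error 0.10, adjusted p = 1.7e-08) and by 1.74 in LMA against LMS (standard error 0.08, adjusted p = 3.2e-10). It lies on chromosome 1 from 74375195 to 74386062 (ENSMUSG00000026177).

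**Figure D5:**
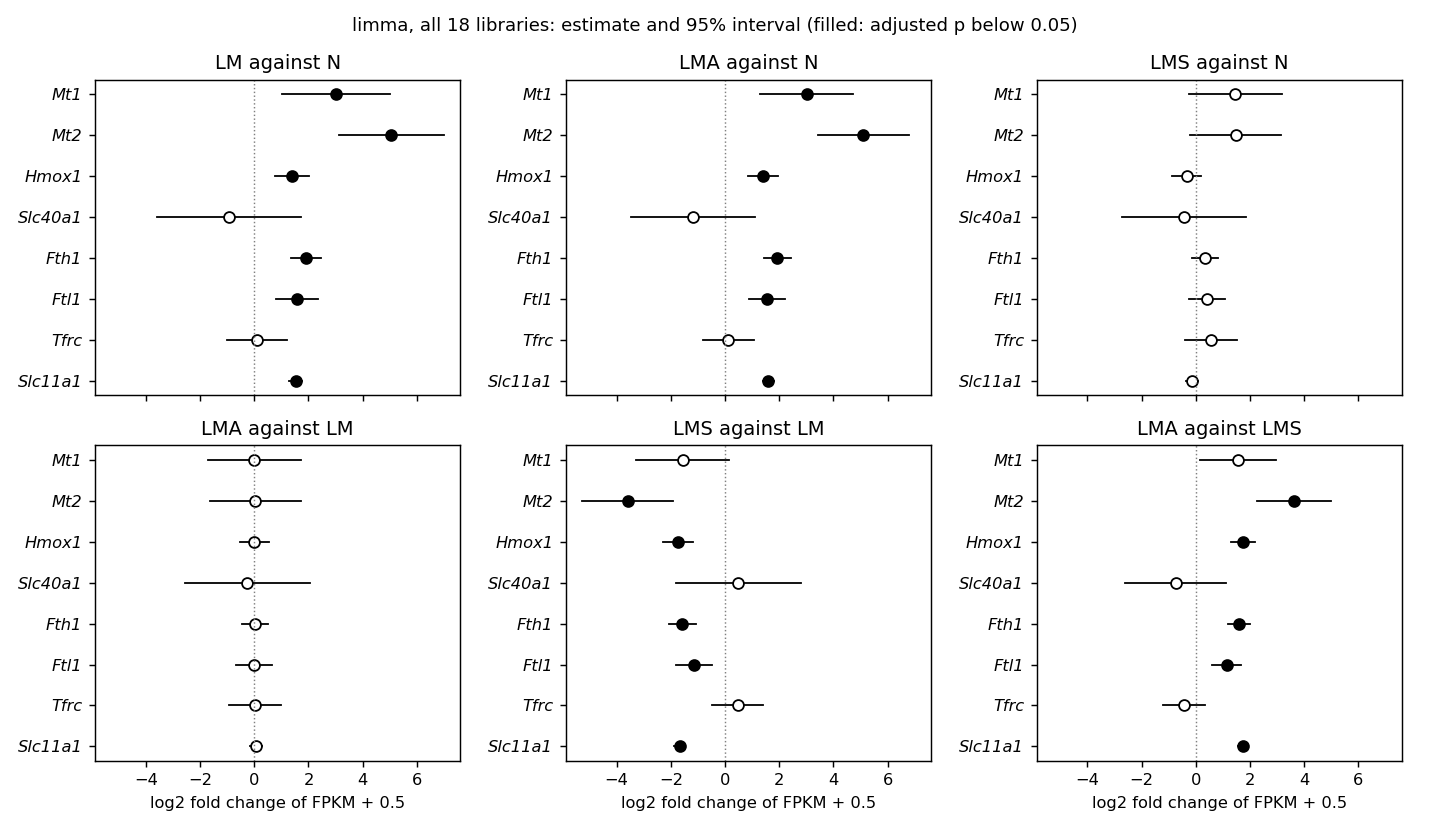
log2 fold change of FPKM + 0.5 with its 95% interval (limma, all 18 libraries) of the 8 genes in the 6 comparisons, filled where the adjusted p is under 0.05. In all, 6 genes are filled in LM against N and in LMA against N, 5 in LMS against LM and in LMA against LMS, and none in LMS against N or LMA against LM.

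Summed markers of neutrophils, like these 6 genes, were higher in every LM and LMA library than in any other. The 7 neutrophil markers, none at 0, summed to 1035 to 1202 FPKM in LM and 1471 to 1996 in LMA. The sum was thus also higher in LMA than in LM, where the 6 genes overlapped. It was 299 to 440 in the 4 libraries without Eif2s3y and 23.7 to 265 in N 3 and LMS 1, 3, 4 and 6. Of the 7 single markers limma called 3 higher in LM against N, where 9.18% of all genes tested were. In LMA against N 4 were higher (13.6%) and in LMA against LMS 5 (11.3%). No single marker was called in LMA against LM. The 6 markers of monocytes and macrophages, none at 0, summed to 2156 to 2361 FPKM in LM and LMA, 3277 to 3647 in N 3 and LMS 1, 3, 4 and 6, and 378 to 440 in the 4 libraries without Eif2s3y. This sum, much of it Lyz2, did not follow the 6 genes. Of the 6 single markers, however, 3 were called higher in LMA against N and 2 in LMA against LMS, and none was lower. Over all genes tested, 13.6% and 11.3% were higher there. The medians of the log2 fold changes of these markers were 1.86 and 1.16, against -0.13 and -0.12 over all genes tested. The part of these cell types in the 6 genes was not tested.

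No gene of the 8 was called between LMA and LM, where the log2 difference was 0.04 for Mt2 (95% interval -1.63 to 1.72), 0.02 for Fth1 (-0.47 to 0.50), 0.001 for Hmox1 (-0.54 to 0.54) and 0.07 for Slc11a1 (-0.14 to 0.27). The fit shares 1 estimate of the spread over all 4 groups. In LMS against N the difference was 1.46 for Mt1 (95% interval -0.25 to 3.18), 1.47 for Mt2 (-0.21 to 3.15), 0.34 for Fth1 (-0.14 to 0.83), 0.41 for Ftl1 (-0.25 to 1.08), -0.34 for Hmox1 (-0.88 to 0.20) and -0.14 for Slc11a1 (-0.35 to 0.07). N held 1 library with Eif2s3y of 3 and LMS 4 of 6, and without N 3, 5 of the 8 genes were called in LMS against N, as were 33.5% of all genes tested. Among the libraries with Eif2s3y, where 5.27% of genes tested were called, Slc40a1 was the only one of the 8, higher in LMS by 2.10 (limma adjusted p = 0.00094) against the 1.11 FPKM of N 3, and among those without it none of the 8 and 0.0175% of genes tested were. Weights per sample gave 6 of the 8 genes in LMS against N and 59.6% of all genes tested.

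Other genes of metal and iron handling, on 8 lists, were called in both directions. Of 103 further genes, 87 were tested, and limma called 5 higher and 10 lower in LM against N, 10 and 10 in LMA against N, and 9 and 10 in LMA against LMS. Of all genes tested, 9.18%, 13.6% and 11.3% were higher in these comparisons, and 15.9%, 21.9% and 19.4% were lower. In LMS against LM 10 were higher, where 13.3% of all genes were, and 5 lower, where 7.94% were. The median log2 fold change of the 87 genes in LMA against N was -0.03, against -0.13 over all genes tested, a median that other scalings moved by up to 0.11. In LMA against N 8 were higher against both kinds of N library and 9 lower, as were 9.45% and 14.7% of all genes tested. None was called in LMS against N or LMA against LM.

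Among 12 further iron uptake genes tested, 2 were higher in LM against N, where 9.18% of all genes tested were. In LMA against N 4 were higher (13.6%) and in LMA against LMS 3 (11.3%). In LMS against LM 2 were lower (7.94%), and none went the other way in any of these comparisons. Lcn2, the siderophore-binding lipocalin of neutrophil granules, was at 9.17 ± 10.2 FPKM in N (SD, n = 3), 99.3 ± 16.6 in LM (SD, n = 3), 150.1 ± 37.1 in LMA (SD, n = 6) and 10.7 ± 9.21 in LMS (SD, n = 6), and rose by 4.77 in LMA against N (limma adjusted p = 0.00013). Slc11a2 (DMT1), the endosomal iron transporter related to Slc11a1, rose by 0.97 (adjusted p = 0.00020) and haptoglobin Hp, which binds free hemoglobin, by 2.08 (adjusted p = 0.029). All 3 were called against either kind of N library. Lcn2 and Hp are also made by neutrophils, whose summed markers are given above.

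Of 5 tested genes of iron export and the hepcidin axis, 1 was higher and 1 lower in LM against N. Over all genes tested, 9.18% were higher there and 15.9% lower. In LMA against N 1 was higher and 2 lower (13.6% and 21.9%), and in LMS against LM 1 and 1 (13.3% and 7.94%). In LMA against LMS 1 was higher and 1 lower (11.3% and 19.4%). The higher gene in LMA against N was Cp, ceruloplasmin, the ferroxidase that works with ferroportin. It stood at 0.556 ± 0.176 FPKM in N (SD, n = 3), 4.98 ± 0.10 in LM (SD, n = 3), 4.59 ± 0.35 in LMA (SD, n = 6) and 0.609 ± 0.259 in LMS (SD, n = 6). It rose by 2.28 in LMA against N (standard error 0.17, limma adjusted p = 1.2e-07), with 2.03 against N 3 alone and 2.40 against N 1 and N 2 alone. Hfe, the hemochromatosis protein that interacts with the transferrin receptor, fell by 0.89 (adjusted p = 3.2e-05), and Smad4, of BMP signalling, fell by 0.32 (adjusted p = 0.037), the latter not against N 3 alone (adjusted p = 0.83). Hepcidin itself, Hamp, was at a mean of 0.143 FPKM and was not tested.

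Of 3 tested ferritin receptors and iron chaperones, none was called in LM against N or in LMS against LM. In LMA against N 1 was lower, where 21.9% of all genes tested were, and in LMA against LMS 1, where 19.4% were. Ncoa4, the receptor that carries ferritin to its breakdown in lysosomes, was at 34.7 ± 22.0 FPKM in N (SD, n = 3) and 15.7 ± 0.5 in LMA (SD, n = 6) and fell by 0.96 (limma adjusted p = 0.040). Against N 3 alone it fell by 0.52 (adjusted p = 3.6e-05) and against N 1 and N 2 alone by 1.18 (adjusted p = 0.0013). The iron chaperones Pcbp1 and Pcbp2 differed by -0.06 (adjusted p = 0.58) and 0.14 (adjusted p = 0.35).

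Of 15 tested genes of heme synthesis, breakdown and transport, 1 was higher in LM against N, where 9.18% of all genes tested were. In LMA against N 2 were higher (13.6%) and in LMA against LMS 2 (11.3%). In LMS against LM 1 was lower (7.94%), and no other was called. Alas1, which starts heme synthesis in most tissues, rose by 0.47 in LMA against N (standard error 0.07, limma adjusted p = 0.00015) and Hmox2, the constitutive heme oxygenase, by 0.31 (adjusted p = 0.027), the latter not against N 3 alone (adjusted p = 0.24). Uros, of heme synthesis, differed by -1.34 (adjusted p = 0.11).

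Of 7 iron sensing genes, 1 was lower in LM against N, where 15.9% of all genes tested were. In LMA against N 2 were higher (13.6%) and in LMS against LM 2 (13.3%). In LMA against LMS 2 were higher (11.3%) and 1 lower (19.4%). Hif1a, the oxygen- and iron-dependent transcription factor, rose by 0.43 in LMA against N (limma adjusted p = 0.0020), also against either kind of N library. Aco1, which encodes iron regulatory protein 1, rose by 0.54 (adjusted p = 0.026), though by only 0.13 against N 3 alone (adjusted p = 0.14). Cul1, a ubiquitin ligase scaffold, differed by -0.53 (adjusted p = 0.057).

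The Nrf2 and Bach1 pathway, which controls Hmox1 and ferritin, had 16 tested genes. None was higher and 3 were lower in LM against N, in LMA against N and in LMA against LMS. In that order, 15.9%, 21.9% and 19.4% of all genes tested were lower. In LMS against LM 3 were higher, where 13.3% of all genes tested were. Keap1, the inhibitor of Nrf2, fell by 0.47 in LMA against N (standard error 0.07, limma adjusted p = 5.8e-05) and Bach1, the heme-sensitive repressor of Hmox1, by 0.49 (standard error 0.09, adjusted p = 0.00056), both against either kind of N library. Gclc, of glutathione synthesis and itself a target of Nrf2, fell by 0.58 (adjusted p = 0.012), though not against N 1 and N 2 alone (adjusted p = 0.066).

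Of 15 tested genes of mitochondrial iron, 2 were lower in LM against N, where 15.9% of all genes tested were. In LMA against N 2 were lower (21.9%) and in LMA against LMS 3 (19.4%), and 2 were higher in LMS against LM (13.3%). Iscu, the scaffold of iron-sulfur cluster assembly, fell by 0.66 in LMA against N (standard error 0.14, limma adjusted p = 0.0016), also against either kind of N library. Lyrm4, of the same assembly, differed by 0.51 (adjusted p = 0.088). Of 14 tested genes of metallothionein and zinc handling, 1 was higher and 3 lower in LM against N. Over all genes tested, 9.18% were higher there and 15.9% lower. In LMA against N 1 was higher and 2 lower (13.6% and 21.9%), and in LMS against LM 2 and 1 (13.3% and 7.94%). In LMA against LMS 1 was higher and 1 lower (11.3% and 19.4%). The zinc transporter Slc39a13 was at 4.24 ± 0.47 FPKM in N (SD, n = 3) and 10.2 ± 1.71 in LMA (SD, n = 6) and rose by 1.17 (standard error 0.15, limma adjusted p = 2.4e-05). Slc30a5, which loads zinc into the secretory pathway, fell by 0.42 (adjusted p = 0.011) and Slc30a6, its partner, by 0.27 (adjusted p = 0.022), the latter not against N 3 alone (adjusted p = 0.14). Mt3 and Mt4 were at means of 0.005 and 0 FPKM and were not tested.

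The genes nearest in profile were found by the mean absolute difference over 18 libraries of log2(FPKM + 0.5), each gene centred on its own mean, among 11427 others. No gene of the 8 was among the 3 nearest of another. Nearest to Mt2 were Nos2, the inducible nitric oxide synthase, at 0.31, the chemokine gene Ccl4 at 0.32 and Irg1, the enzyme that makes itaconate, at 0.33, while the median gene lay at 2.12. Nearest to Mt1 were Pls3 (0.16), Emilin2 (0.19) and Ifitm3 (0.20), and Mt1 and Mt2 themselves lay 1.03 apart. Nearest to Hmox1 were Siglec1, the sialic acid receptor of splenic marginal macrophages, at 0.13, Aebp1 at 0.17 and Clec4a3 at 0.18.

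Fth1 lay closest to Efhd2 (0.11), the lysosomal protease Ctsd (0.11) and Pik3r5 (0.13), and Ftl1 to Tiparp (0.08), Rilpl1 (0.08) and the amino acid transporter Slc7a8 (0.08), with 0.22 between the subunits. Among pairs of the 8 genes this was the smallest distance, followed by Fth1 with Slc11a1 at 0.26 and Hmox1 with Slc11a1 at 0.27. Slc11a1 was nearest to Myo1e (0.13), Zfp811 (0.15) and Por (0.16). Slc40a1 was nearest to March1 (0.12), a ubiquitin ligase, the receptor tyrosine kinase Axl (0.13), which is one of the red pulp markers, and Cd84 (0.13), and Tfrc to Prdx2 (0.07), a peroxiredoxin abundant in red cells, Hagh (0.08) and Cep76 (0.10). These distances describe 18 libraries that share group and kind.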

How the data were processed

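RNA of mouse splenocytes was sequenced by the authors on an Illumina NovaSeq system, and their methods state that raw counts were estimated and normalized as FPKM. The deposited tables, 1 per library, hold an FPKM value for each gene, scaled to gene length and library size, without pooling. The submitters' processing notes name the build mm10 and GATK 4.2, whereas an aligner and a quantifier were not given in the sources used. The column headed TPM was treated as a score, since the authors' tables list assembled loci beside the reference genes and its sum is not that of TPM values. The deposited coverage signal, divided by FPKM, gave 5.21 to 7.92 gigabases of aligned sequence per library. The tables hold no counts per gene, so no counting interval was computed.

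Groups and replicate numbers came from the labels. Rows with the same gene identifier (19 to 28 per table) were summed, and no member was among them. limma 3.58.1 in R 4.3.3 (lmFit, contrasts.fit, eBayes, trend on) modelled log2(FPKM + 0.5) in 4 groups and 18 libraries over the 11436 protein-coding genes (GENCODE M21) with a mean of at least 0.5 FPKM, two-sided, with Benjamini-Hochberg adjustment within each comparison and a threshold of 0.05. The fit was tried on simulated data of LMA against N. There it called 52.5% of 200 changed genes among 11436 at a log2 change of 1 and 86.0% at 2. The simulated noise was independent between libraries and had the same spread per gene in every group. It did not hold the 2 kinds of N and LMS library, so these rates check the code and are not the recovery in these data. Fold changes on this scale understate low genes. Lists took 4 genes by their older symbols (Hfe2, Skp1a, Mfsd7b, Mfsd7c). Named are the 8 genes, from each list the 3 genes lowest in adjusted p in LMA against N, and the 3 nearest genes of each member. A gene that this rule takes is not reported here. Eif2s3y, Xist, Cd3e, Lyz2, Spic, Vcam1, Alas2 and hemoglobin describe the libraries, and Hamp, Mt3, Mt4 and the ferritin copies were named outside this rule, after their values were seen. The members and lists were chosen with earlier results of these data known. Libraries with the same replicate number were compared by the correlation of their deviations from the group means: all 3 pairs were above 0.1 in LMS and LM (0.223, 0.431 and 0.240), so that the numbers count as pairs there by the rule used, while nothing in the labels says what they mark, and pairs of mixed sign stood in every other comparison. Alternatives were other pseudocounts, filters and scalings, fits of the compared groups only, weights per sample, the replicate number as a block, leaving out each library and 2 sets of libraries added after the data were seen. Python 3.11.15 with numpy 2.4.6, pandas 2.3.3 and matplotlib 3.10.9 was used for the rest.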

Additional observations from a re-analysis of the deposited data

How the results depend on the processing

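The 6 counts of members called and 22 called log2 fold changes were recomputed under 29 other settings. No called fold change turned its direction, and of 638 recomputed values 621 stayed past the threshold and 17 did not, those of Mt1 and Ftl1 named above and, with only the compared groups fitted, Mt1, Mt2, Hmox1, Fth1 and Ftl1 in LM against N. That fit of 6 libraries left 1 of 8 members called in LM against N, against 6. Sample weights gave 6 members and 59.6% of all genes in LMS against N, against 0, from an iteration that stopped before it converged. Of the sets added after the data were seen, the N and LMS libraries without Eif2s3y gave 8 members in LMA against LMS, against 5. Slc40a1 and Tfrc were lower there, and of all 11436 genes tested 4181 were called higher and 4826 lower. Leaving out 1 library gave 5 to 7 members in LM against N, 5 to 7 in LMA against N, 4 to 5 in LMS against LM, 5 to 6 in LMA against LMS, 0 in LMA against LM and 0 to 5 in LMS against N, where the 5 came from leaving out N 3, which also called 33.5% of all genes. In that order, 1774 to 6657, 2654 to 7552, 1625 to 3069, 3061 to 4224, 0 and 0 to 3830 of the 11436 genes tested were called. With a replicate block the fit changed no call of a member. It called 6 members in LM against N and in LMA against N, with 2594 and 3236 of all genes. In LMS against LM and in LMA against LMS it called 5 members, with 1893 and 3368 of all genes. In LMS against N and in LMA against LM it called 0 members and 0 of all genes. The cause of these changes was not tested. Under scaling by the median of ratios the typical gene shifted by 0.11 on the log2 scale in LMA against N, which raised the share of its calls that were higher from 38.3% to 55.0%. With the TPM column the shift was 0.11 and the share 49.0%, with the same members called. The shares in LM against N, LMS against LM and LMA against LMS under the median of ratios were 53.3%, 47.7% and 52.3%, against 36.7%, 62.7% and 36.9%, and under the TPM column LMA against LMS had 49.2%. In LMA against LM, where 0 genes were called, 39 were without a filter on low values, 48 with only the compared groups, 164 with sample weights, 66 among the libraries with Eif2s3y and 9 with the N and LMS libraries without it, none of them a member. The tables hold no counts per gene, so what depth limits could not be given per gene.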
